A study of Homo sapiens with 24 samples.

Results

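The 10 genes described here encode the core subunits of the 2 Polycomb repressive complexes. They were taken from a list of symbols by a rule that uses no measured value. The list itself was chosen with earlier results of these data known. All 10 were found, by Ensembl identifier, among the 12285 genes of the expression table. They comprised 6 genes of Polycomb repressive complex 2 (PRC2), namely EZH2, EZH1, EED, SUZ12, RBBP4 and RBBP7, and 4 of Polycomb repressive complex 1 (PRC1), namely RNF2, RING1, BMI1 and PCGF1. RNA was sequenced from K562, an established human leukaemia line with erythroid features, grown in RPMI medium with 10% bovine calf serum and P/S. Centrifugal elutriation, which separates cells by size, gave a synchronous population that was put back into culture and sampled every 2 h from 0 h to 46 h. Each of the 24 time points was 1 library, all were untreated, and no time point was replicated. The study set out to detect and correct STRIPEs, its name for time points at which transcript levels across the transcriptome depart from those of the neighbouring samples, and it counted 16 h and 18 h among them and 32 h as a milder case.

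PRC2 trimethylates a lysine of histone H3. EZH2 and EZH1 are its alternative catalytic subunits, SUZ12 holds the complex together, EED reads the mark that the complex makes, and RBBP4 and RBBP7 are histone-binding proteins shared with other chromatin complexes. PRC1 ubiquitinates histone H2A through RING1 or RNF2, each paired with a PCGF protein such as BMI1 (also called PCGF4) or PCGF1. Both complexes keep developmental genes silent through cell division, and EZH2 and EED are textbook targets of the E2F factors that drive entry into S phase.

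The promoters of 4 members are shown first, EZH2 and SUZ12 for PRC2 and RING1 and BMI1 for PRC1. They are RefSeq sequences of build GRCh38.p14, written 5′ to 3′ on the strand of the gene and restricted to bases upstream of annotated exons. They span chr7:148884322-148884541 on the minus strand for EZH2 and, on the plus strand, chr17:31936757-31937006 for SUZ12, chr6:33208250-33208494 for RING1 and chr10:22320849-22321098 for BMI1. Capitals mark the CCAAT box (CCAAT, read as ATTGG on the opposite strand) and any of 4 E2F-like motifs. These were TTCCCGC and 3 variants of it, TTGGCGC being the first, with TTCGCGC as the second and with TTGCCGC as the third, searched on both strands.
EZH2: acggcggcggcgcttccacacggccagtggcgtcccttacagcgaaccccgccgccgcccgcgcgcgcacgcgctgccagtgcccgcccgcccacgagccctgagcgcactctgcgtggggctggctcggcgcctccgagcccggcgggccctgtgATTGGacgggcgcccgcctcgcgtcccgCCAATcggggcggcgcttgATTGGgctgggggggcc
SUZ12: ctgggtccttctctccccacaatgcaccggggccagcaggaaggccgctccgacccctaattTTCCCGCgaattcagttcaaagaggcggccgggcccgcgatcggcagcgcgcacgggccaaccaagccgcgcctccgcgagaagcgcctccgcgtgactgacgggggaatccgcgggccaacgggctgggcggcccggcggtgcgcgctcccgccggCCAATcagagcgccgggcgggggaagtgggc
RING1: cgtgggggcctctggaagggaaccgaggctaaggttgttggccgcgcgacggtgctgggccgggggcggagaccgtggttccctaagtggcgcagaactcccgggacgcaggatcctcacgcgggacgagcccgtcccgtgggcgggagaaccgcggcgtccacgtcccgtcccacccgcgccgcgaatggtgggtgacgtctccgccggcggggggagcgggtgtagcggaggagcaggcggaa
BMI1: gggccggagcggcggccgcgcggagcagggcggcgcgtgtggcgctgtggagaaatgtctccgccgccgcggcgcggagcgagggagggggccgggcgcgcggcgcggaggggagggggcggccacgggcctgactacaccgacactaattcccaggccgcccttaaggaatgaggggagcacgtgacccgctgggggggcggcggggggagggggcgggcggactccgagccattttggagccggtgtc
The full EZH2 window, from 250 bases before to 50 bases after the start, held 4 CCAAT boxes, with the first bases at -94, -66, -47 and -13, and 1 E2F-like match, TTGGCGC at 2 bases past the start. The box at -13 and the E2F-like match lie outside the stretch printed. The SUZ12 window held 1 CCAAT box at -31 and 1 E2F-like match, TTCCCGC at -188. The windows of RING1 and BMI1 held neither motif, and the same was true of PCGF1. Among the other members, RBBP4 had 2 overlapping E2F-like matches and 2 CCAAT boxes, EZH1 and RNF2 had 1 E2F-like match each, and EED and RBBP7 had 1 CCAAT box each in their first windows. A second RBBP7 window held 1 E2F-like match, TTCGCGC at -93, and 1 CCAAT box at -87. A second EZH2 window held neither motif. Of 35116 RefSeq windows of the same length, 12.97% held an E2F-like match and 34.61% a CCAAT box. An E2F-like match can share letters with a CCAAT box or with another E2F-like match, as in RBBP4, and a match describes the letters only.

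Levels are given in FPKM, a fragment count scaled to transcript length and library size, and can be compared between genes. Read counts could not be recovered from the deposited values, so sequencing depth is unknown, and all values come from single libraries. Summed FPKM over all genes was highest at 16 h (566247) and 18 h (591309) and between 456791 and 520382 elsewhere. All 13 erythroid markers listed for K562 were in the table, at a summed level of 4382 to 9390 FPKM per library. Of 6 lymphoid markers 2 were in the table, with a summed level of 4.81 to 14.1 FPKM, and of 6 fibroblast markers COL1A2 alone, at 1.70 to 3.94 FPKM. In bulk RNA, a change in the share of cells in a phase and a change in RNA per cell cannot be told apart.

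All 10 members were expressed at every time point. RBBP7 and RBBP4 had the highest median levels, at 157 and 155 FPKM, followed by EZH2 at 99.5, BMI1 at 61.3, EED at 47.2, SUZ12 at 43.9, RNF2 and RING1 both at 27.5, EZH1 at 22.4 and PCGF1 at 15.2 FPKM. The median over all genes and time points was 13.5 FPKM. Neighbours in this order were not always separated. RBBP7 exceeded RBBP4 at 10 of 24 time points and RNF2 exceeded RING1 at 15 of 24, so neither pair differed beyond its spread over time. EED exceeded SUZ12 at 17 of 24 and BMI1 exceeded EED at 20 of 24. The order was clearer for EZH2 over BMI1, SUZ12 over RNF2 and RING1 over EZH1, each at 24 of 24 time points, for EZH1 over PCGF1 at 23 of 24 and for RBBP4 over EZH2 at 22 of 24, the exceptions for the last pair being 16 h and 18 h.

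**Figure D1:**
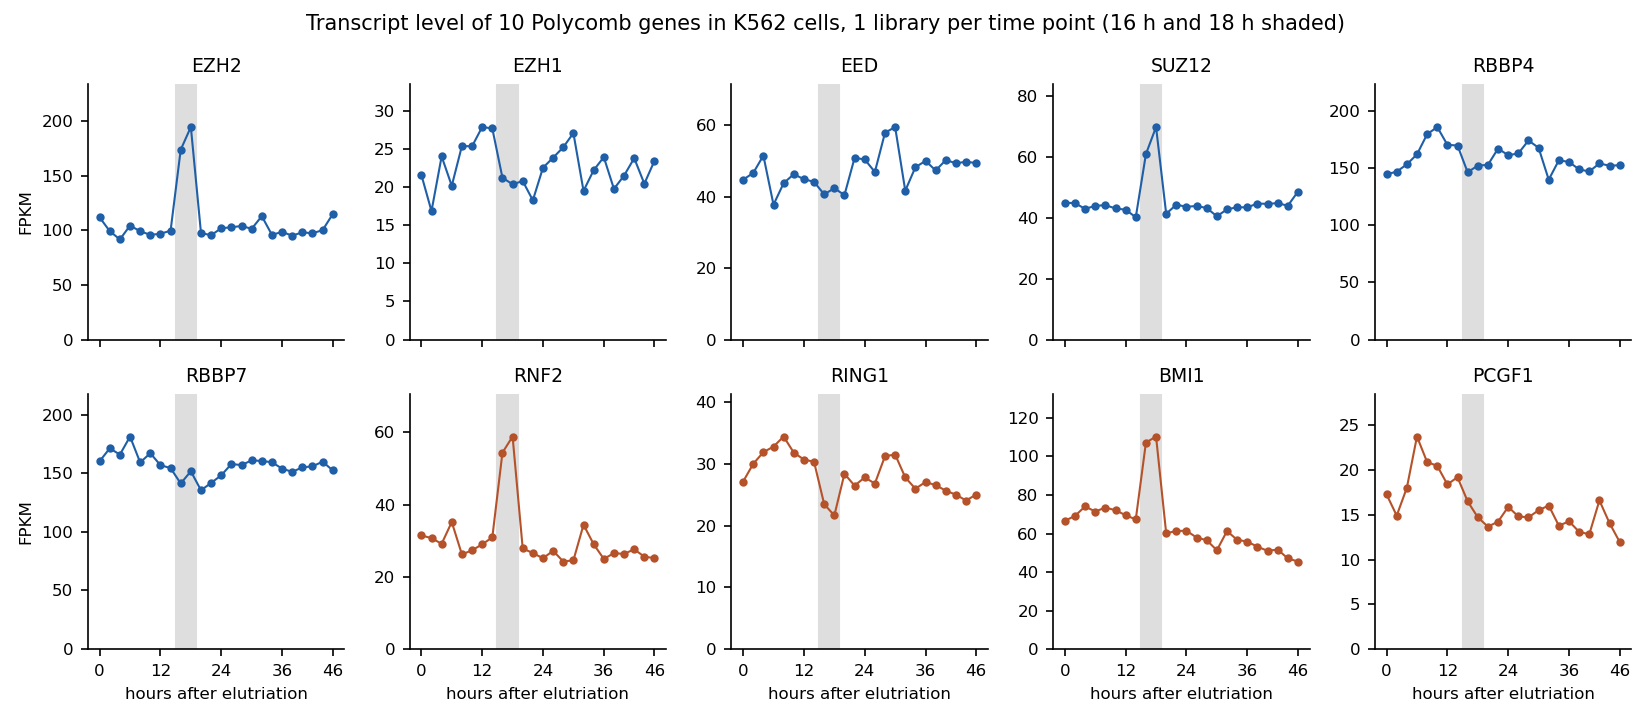
FPKM (vertical axes, starting at 0) of the 10 members against hours after elutriation, 1 library per point, with PRC2 genes in blue and PRC1 genes in brown. EZH2, SUZ12, RNF2 and BMI1 peak in the shaded libraries of 16 h and 18 h, RING1 is lowest at 18 h, and BMI1 and PCGF1 end the series at their lowest values.

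Among the catalytic subunits of PRC2, EZH2 ranged from 91.7 FPKM at 4 h through a median of 99.5 to 195 FPKM at 18 h. It was flat apart from 2 libraries, 174 FPKM at 16 h and 195 at 18 h, against 99.7 at 14 h and 97.6 at 20 h. Over the other 22 time points EZH2 stayed between 91.7 and 115 FPKM, a coefficient of variation of 5.92%. EZH1, the paralogue with weaker catalytic activity, ranged from 16.9 FPKM at 2 h through a median of 22.4 to 27.9 FPKM at 12 h. Its high values lay at 12 h and 14 h and again at 30 h (27.1 FPKM), with neighbouring libraries often several FPKM apart. The EZH2 to EZH1 ratio had a median of 4.54, was lowest at 12 h (3.47) and reached 8.18 at 16 h and 9.54 at 18 h. EZH2 was the more abundant transcript of the pair at 24 of 24 time points.

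SUZ12, the scaffold subunit, ranged from 40.2 FPKM at 14 h through a median of 43.9 to 69.9 FPKM at 18 h. The libraries of 16 h (61.0 FPKM) and 18 h stood apart from all others, which held SUZ12 between 40.2 and 48.7 FPKM with a coefficient of variation of 3.94%, the smallest of the 10 members. EED, the subunit that binds trimethylated histone H3, ranged from 37.8 FPKM at 6 h through a median of 47.2 to 59.5 FPKM at 30 h. EED did not share the peak of its partners: it was at 40.7 FPKM at 16 h and 42.4 at 18 h, next to 44.2 at 14 h and 40.5 at 20 h. The ratio of EED to SUZ12 was 0.667 at 16 h and 0.606 at 18 h and was highest at 30 h, at 1.47. The deposited values of SUZ12 may share reads with its partial copy SUZ12P1, which was listed at 14.1 to 24.5 FPKM and was lowest at 18 h.

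RBBP4, a histone chaperone subunit also found in the CAF-1 and NuRD complexes, ranged from 139.8 FPKM at 32 h through a median of 155 to 186 FPKM at 10 h. It went up over the first hours from 145 FPKM at 0 h, and its 7 highest values lay at 8 h to 14 h and at 22 h, 28 h and 30 h. RBBP7, its close paralogue, ranged from 135 FPKM at 20 h through a median of 157 to 181 FPKM at 6 h. The RBBP4 to RBBP7 ratio had a median of 1.01 and stayed between 0.858 at 2 h and 1.18 at 22 h. RBBP7 overlaps TXLNG on the opposite strand, and whether the counting used strand is not given in the sources used here. TXLNG was highest at 16 h and 18 h (54.6 FPKM) against at most 35.4 elsewhere, whereas RBBP7 was at 141 and 152 FPKM in those libraries.

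RNF2 and RING1 are the alternative E3 ubiquitin ligases of PRC1. RNF2 ranged from 24.2 FPKM at 28 h through a median of 27.5 to 58.8 FPKM at 18 h. It was 54.4 FPKM at 16 h, and next highest at 6 h (35.2) and 32 h (34.4). RING1 ranged from 21.6 FPKM at 18 h through a median of 27.5 to 34.4 FPKM at 8 h. In FPKM as deposited, RING1 moved opposite to RNF2 in the 2 STRIPE libraries, with 23.5 FPKM at 16 h against 30.3 at 14 h and 28.4 at 20 h. The RNF2 to RING1 ratio, with a median of 1.01, was 2.32 at 16 h and 2.72 at 18 h, and elsewhere lay between 0.762 at 8 h and 1.24 at 32 h.

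BMI1, the PCGF subunit of canonical PRC1, ranged from 45.5 FPKM at 46 h through a median of 61.3 to 110.3 FPKM at 18 h. Outside 16 h (107 FPKM) and 18 h its maximum was 74.0 FPKM at 4 h. PCGF1, the PCGF subunit of a variant PRC1 that contains KDM2B and BCOR, ranged from 12.0 FPKM at 46 h through a median of 15.2 to 23.7 FPKM at 6 h. Its values from 6 h to 14 h (18.4 to 23.7 FPKM) were above all those from 20 h on, of which 16.6 at 42 h was the highest. The BMI1 to PCGF1 ratio had a median of 3.86 and was highest at 18 h, at 7.50. BMI1 shares exons with the readthrough gene COMMD3-BMI1, listed at 0.00037 FPKM at 36 h and up to 15.9 FPKM at 32 h, so the split of reads between the pair is uncertain.

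To set the STRIPE libraries against the series, log2(FPKM + 1) at 16 h and 18 h was compared with a line drawn from 14 h to 20 h, and the differences were averaged. The same measure at 16 other consecutive pairs of time points gave each gene a reference range, and no test was run. RNF2 deviated by 0.92 (reference -0.32 to 0.34), EZH2 by 0.89 (-0.18 to 0.12), BMI1 by 0.76 (-0.14 to 0.14) and SUZ12 by 0.67 (-0.07 to 0.05). RING1 deviated by -0.37 (-0.12 to 0.19). These 5 members lay outside their own reference ranges, 4 above and 1 below. The share of all genes outside their own ranges was not counted, so this count cannot be set against the series. The other members lay inside: EZH1 at -0.20, RBBP4 at -0.11, PCGF1 at -0.05, EED at -0.03 and RBBP7 at 0.02. None of the 10 reached 2-fold, while 8.95% of 12253 genes averaging 1 FPKM or more lay 2-fold or more above the line and 7.11% lay 2-fold or more below it. That split of 1097 against 871 genes depended on scaling, with 794 above and 1129 below after median centring and 579 above and 1299 below after upper quartile scaling. The median over all genes was 0.14, and 0.02 after median centring, which left EZH2 at 0.78, RNF2 at 0.81, BMI1 at 0.65, SUZ12 at 0.55 and RING1 at -0.48.

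**Figure D2:**
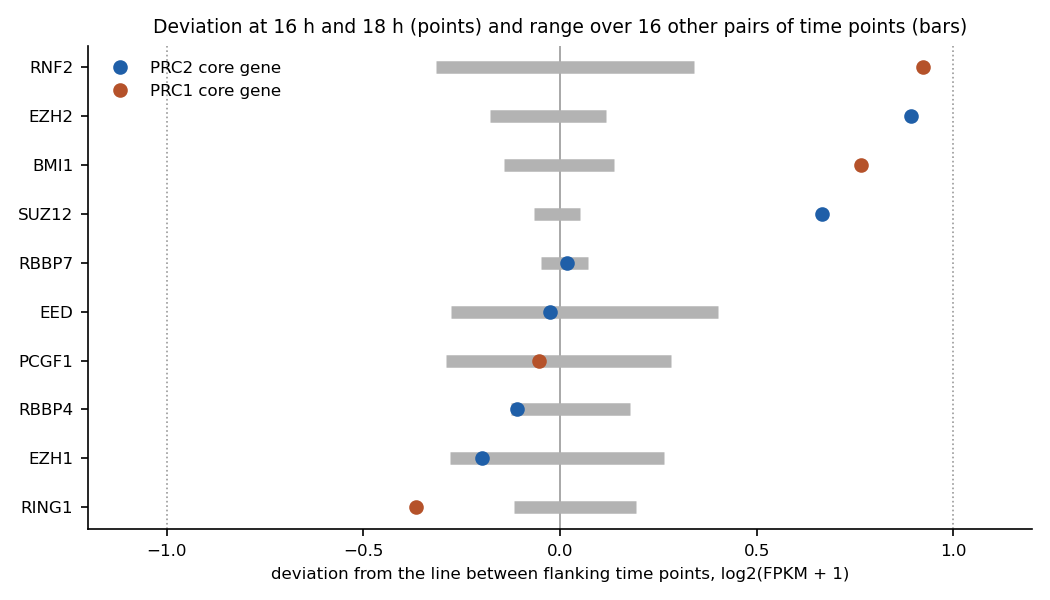
Mean deviation at 16 h and 18 h of log2(FPKM + 1) for each member (points), with the range of the same measure over 16 other pairs of time points (grey bars) and dotted lines at 2-fold. RNF2, EZH2, BMI1 and SUZ12 lie above and RING1 below their bars (RING1 turns positive once the GC trend is removed), while the other 5 points lie within them.

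The deviations were then set beside base composition. Over all genes the median deviation went from 0.53 for the lowest of 20 bins of transcript GC content (median 35.2% GC) to -0.82 for the highest (65.7% GC). RNF2, SUZ12 and BMI1 had longest transcripts of 38.1%, 38.0% and 39.1% GC and EZH2 of 42.7%, whereas RING1 had 61.6%. EED (33.0% GC), RBBP4 (41.6%) and RBBP7 (42.0%) were also poor in GC, and did not share the high values. With the median of genes of like GC content subtracted, an alternative added after the data had been seen, EZH2 was left at 0.46, RNF2 at 0.36, BMI1 at 0.20 and SUZ12 at 0.10, and RING1 changed sign to 0.20. EED, RBBP4 and RBBP7 came to lie at -0.56, -0.54 and -0.42. PCGF1 changed sign to 0.18, and EZH1 was at -0.29.

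**Figure D3:**
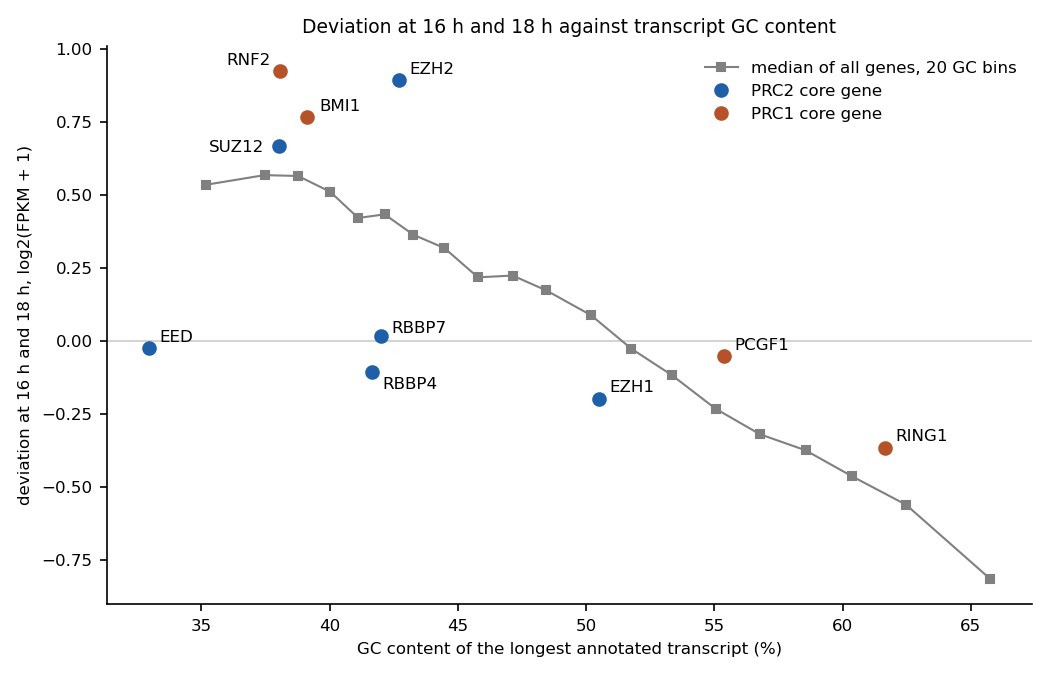
Deviation at 16 h and 18 h of log2(FPKM + 1) against the GC content of the longest annotated transcript, for the 10 members (coloured points) and as the median of all genes in 20 bins (grey squares). EED, RBBP4 and RBBP7 fall below the median of genes of like GC content, and EZH2 and RNF2 lie farthest above it.

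Some members also departed from their neighbours at 6 h and 32 h. RNF2 was above the mean of its neighbours by 0.34 at 6 h and 0.35 at 32 h on log2(FPKM + 1), against -0.24 to 0.14 at 16 other single time points. EED was below by -0.32 and -0.36, against -0.20 to 0.29. EZH2 lay at 0.13 and 0.19, above its range of -0.15 to 0.05. At 32 h RBBP4 was at -0.21, below its range of -0.06 to 0.10, and BMI1 at 0.18, above its range of -0.19 to 0.07, whereas both stood within their ranges at 6 h. RBBP7 was above its range (-0.13 to 0.08) at 6 h, by 0.16, and within it at 32 h. SUZ12, RING1, EZH1 and PCGF1 lay within theirs at both time points. Some of the 16 other time points have 6 h or 32 h as a neighbour, so the ranges also draw on those libraries. The medians over all genes were 0.05 at 6 h and 0.03 at 32 h. How many of all genes lay outside their own ranges at 6 h and 32 h was not counted. The departures of the members therefore cannot be set against the series.

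Whether the members recurred with a 24 h cycle was tested with the JTK statistic, which ranks the order of the 24 values against cosines of 12 phases. Its permutation p was Benjamini-Hochberg adjusted over all 12285 genes. RING1 (adjusted p = 0.00219) and RBBP7 (adjusted p = 0.0229), both with a best phase of 6 h, were called, 2 of 10 members against 11.9% of all genes. The other 8 members did not pass, with adjusted p from 0.165 for PCGF1 and 0.195 for SUZ12 to 0.563 for EZH2 and 0.879 for RNF2. RING1 climbed from 27.1 FPKM at 0 h to 34.4 at 8 h and, in the second 24 h, from 26.8 at 26 h to 31.5 at 30 h. From 32 h to 38 h RING1 was at 26.0 to 27.8 FPKM, against 30.3 to 34.4 at the matched 8 h to 14 h. It remained called without 16 h and 18 h, with an adjusted p of 0.0111, and lost its call at periods of 20 h and 28 h. RBBP7 went from 181 FPKM at 6 h to 135 at 20 h, but in the second 24 h stayed between 148 and 161 FPKM. Its call rested on 1 library: without 6 h the adjusted p was 0.0655, and it was also lost under both other scalings.

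Amplitudes were small. Without 16 h and 18 h, the fitted 24 h peak-to-trough difference of the 10 members was 0.06 to 0.22 on log2(FPKM + 1), with a median of 0.14, against a median of 0.21 over all genes and 0.44 over 20 E2F-driven S phase genes. EZH2 had 0.11 and SUZ12 0.06, RING1 had 0.20 and PCGF1, the highest, 0.22. Of the S phase genes 10 of 20 were called rhythmic, and 13 of 20 without 16 h and 18 h. Among the 10 were MCM5, of the replicative helicase, and GINS2, of the same machinery. Each had an adjusted JTK p of 0.00148 and a best phase of 4 h. Among 15 G2/M genes TOP2A, CDK1 and CDC25C were called, and 0 of 15 without 16 h and 18 h.

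**Figure D4:**
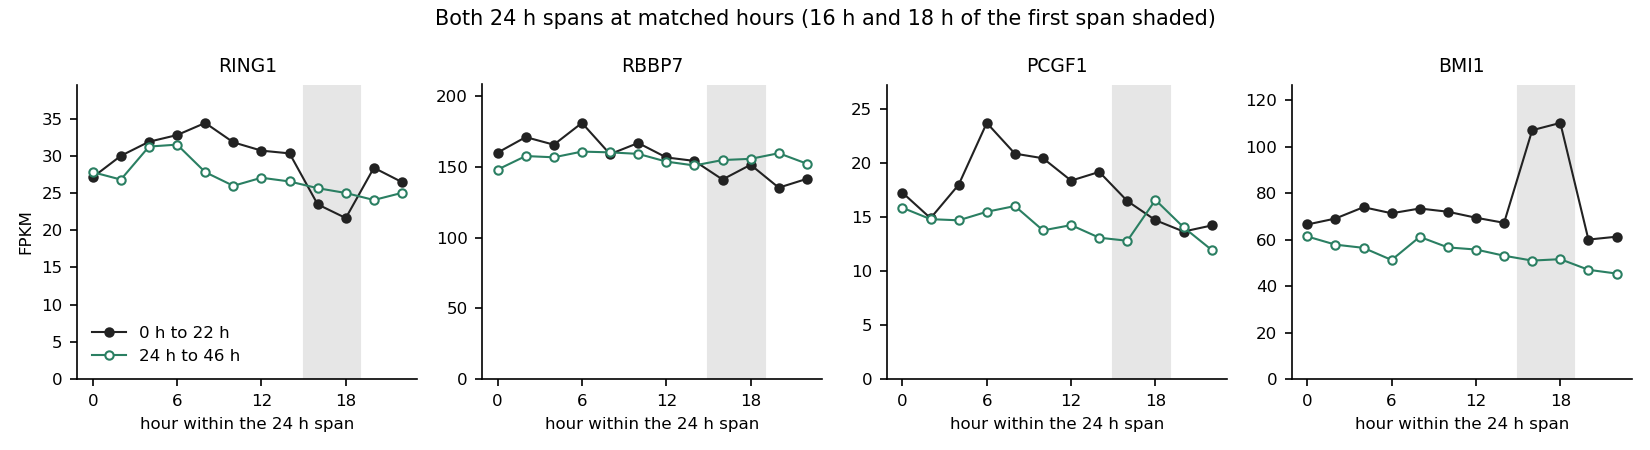
FPKM (vertical axes, starting at 0) of RING1, RBBP7, PCGF1 and BMI1 at matched hours of the first 24 h (filled) and the second 24 h (open). RING1 is high near 6 h in both spans, RBBP7 varies less in the second span, and BMI1 is lower in the second span at 12 of 12 hours.

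A trend across the 46 h was tested as the slope of log2(FPKM + 1) per 24 h with limma, beside cosine and sine terms of 24 h, and adjusted over all genes by Benjamini-Hochberg. BMI1 fell, by 0.44 ± 0.08 (SE, 24 time points; limma adjusted p = 0.000229), and so did PCGF1, by 0.25 ± 0.06 (limma adjusted p = 0.00367). RNF2 was called as falling with a slope of -0.29 ± 0.10 (limma adjusted p = 0.0456), and EED as rising with 0.15 ± 0.05 (limma adjusted p = 0.0372). The 3 falling members were all PRC1 genes and compare with 8.8% of all genes called as falling, and the 1 rising member with 13.5% called as rising. The numbers of all genes called, 1653 rising and 1081 falling, became 1441 and 1592 after median centring. The 6 other members had slopes between -0.11 (EZH2) and 0.02 (EZH1) and did not pass. The interval of the EZH2 slope ran from -0.30 to 0.08 at 95%, and that of SUZ12 from -0.20 to 0.06.

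The 4 calls differed in how far they rested on single libraries. BMI1 averaged 68.5 ± 4.78 FPKM (SD over 10 time points) in the first 24 h without 16 h and 18 h and 54.1 ± 5.07 FPKM (12 time points) in the second, and was lower in the second at 10 of 10 matched hours. Without 16 h and 18 h its slope was -0.32 ± 0.03, still called. PCGF1 averaged 18.1 ± 3.19 and 14.5 ± 1.41 FPKM over the same time points, was lower at 9 of 10 matched hours, and was called under every alternative tried. RNF2 averaged 29.4 ± 2.72 and 26.7 ± 2.79 FPKM. Its slope without 16 h and 18 h was -0.13 ± 0.05 (limma adjusted p = 0.0658), but -0.16 and called (limma adjusted p = 0.00244) when 6 h and 32 h were left out as well. Its call was lost on leaving out any 1 of 16 libraries, with adjusted p from 0.0506 to 0.0923. It was kept on leaving out 0 h, 8 h, 10 h, 12 h, 14 h, 20 h, 22 h or 32 h. EED averaged 45.1 ± 4.17 and 50.1 ± 4.70 FPKM and was lower in the second span at 2 of 10 matched hours. The EED call was lost on leaving out any 1 of 9 libraries (8 h, 16 h, 28 h, 30 h, 36 h, 38 h, 40 h, 42 h or 44 h, with a highest adjusted p of 0.0750) and after median centring, and it was kept without 6 h, 16 h, 18 h and 32 h, with 0.16 (limma adjusted p = 0.00477). RING1, at -0.08 ± 0.04 over all time points, was called as falling without 16 h and 18 h, with -0.13 ± 0.03 (limma adjusted p = 0.00710).

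**Figure D5:**
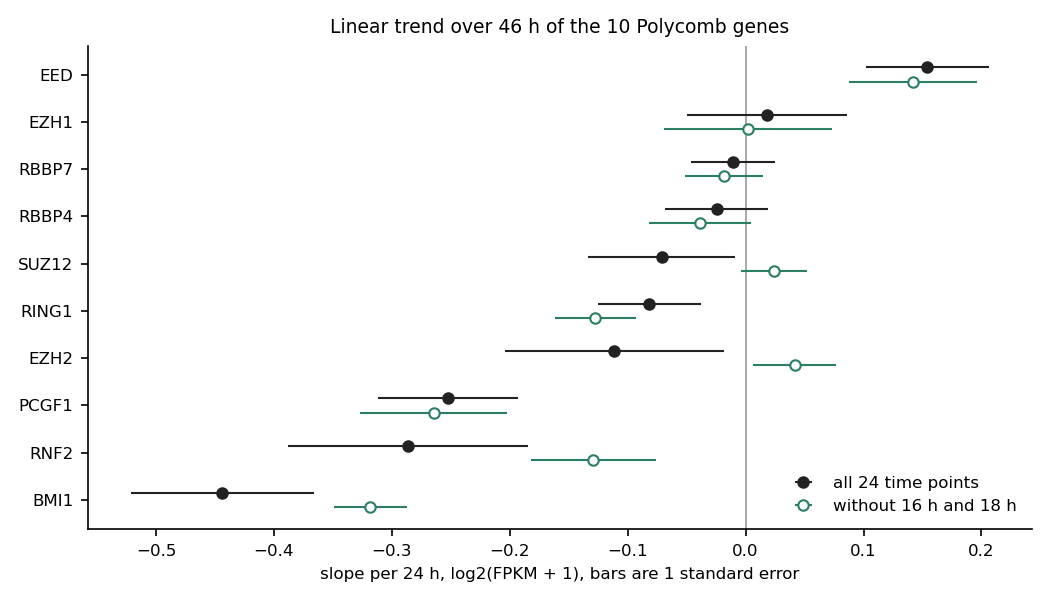
Slope of log2(FPKM + 1) per 24 h for each member, with 1 standard error, over all 24 time points (filled) and without 16 h and 18 h (open). BMI1 and PCGF1 lie below 0 either way, while RNF2 moves from -0.29 to -0.13 and EZH2 from -0.11 to 0.04.

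Pairs of members were compared by Pearson correlation of log2(FPKM + 1) as a description, since all points share their libraries and any drift. Over the 22 time points without 16 h and 18 h the PRC1 genes BMI1 and PCGF1 had r = 0.79, RING1 and BMI1 0.76, and RING1 and PCGF1 0.74. The PRC1 pairs of RNF2 with BMI1, PCGF1 and RING1 were lower, at 0.56, 0.51 and 0.22. Some pairs outside PRC1 or across the complexes exceeded these RNF2 pairs, while others were negative. EZH1 and RBBP4 had 0.62, RBBP4 and RING1 0.59, and RBBP7 and PCGF1 0.57. The lowest value among all members was that of EED and RNF2, at -0.75. EZH2 and SUZ12 went from 0.94 over all 24 time points to 0.34 over the 22, and SUZ12 and BMI1 from 0.66 to -0.31.

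For each member the 3 genes of most similar profile over the same 22 time points were sought among those averaging 10 FPKM or more. For EZH2 they were SMARCC2 (r = 0.83), CMAS and MXI1, for EZH1 ABCC5 (0.78), DYNC2I2 and RIPOR3, and for SUZ12 WRN (0.77), ATAD2 and PANK3. EED was nearest to ADH5 (0.82), CHCHD7 and LINC01610. RBBP4 was nearest to CDK4 (0.88), the kinase partner of D-type cyclins, TIMELESS and SNX17, and RBBP7 to VPS37C (0.89), KRT19 and CTSB. RNF2 was nearest to ATP5F1B (0.89), RTRAF and ZNF777, and RING1 to FBXO9 (0.93), RPP21 and CZIB. BMI1 was nearest to MT2A (0.94), ALAS2, which encodes the first enzyme of haem synthesis in erythroid cells, and MRPL40, and PCGF1 to MTFR1L (0.91), CTU2 and B4GALT3.

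The wider Polycomb machinery is given by counts, beside which the shares over all genes were 11.9% rhythmic, 13.5% rising and 8.8% falling. Without 16 h and 18 h, 1993 of all 12285 genes were rhythmic, 2403 rising and 1536 falling. Of 7 accessory PRC2 subunits in the table, 1 was called rhythmic and none had a trend by limma (2 at an unadjusted p under 0.05). Without 16 h and 18 h, 2 of the 7 were called as falling, PHF19 and EPOP. The rhythmic gene was PHF1, a Polycomb-like protein that recruits PRC2, at 11.1 FPKM at 18 h to 45.7 at 6 h (JTK adjusted p = 0.00148). PHF1 deviated by -0.97 at 16 h and 18 h. Without these libraries its fitted 24 h peak-to-trough difference was 0.38 on log2(FPKM + 1). MTF2, another Polycomb-like protein, peaked at 18 h like SUZ12, with a deviation of 0.67. Of 25 other PRC1 subunits 4 were called rhythmic, among them the chromobox genes CBX2 and CBX8 and also L3MBTL2 (JTK adjusted p = 0.0145 for each). CBX2 was lowest at 16 h and CBX8 at 18 h. Their deviations were -0.75 and -0.76, and that of L3MBTL2 was -0.53. In that list 1 gene rose, CBX7, averaging 1.41 FPKM, with 0.18 ± 0.07 (limma adjusted p = 0.0464, and 0.119 without 16 h and 18 h). Also, 1 fell, PCGF5, with -0.44 ± 0.12 (limma adjusted p = 0.00749). Without 16 h and 18 h, 5 of the 25 were rhythmic, 3 rose, CBX7 not among them, and PCGF5 alone fell. PCGF5 was highest at 18 h (54.1 FPKM) and lowest at 46 h (17.6 FPKM), as BMI1 was.

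Of 7 genes of the H2A deubiquitinase PR-DUB, which removes the PRC1 mark, ASXL1, MBD6 and FOXK2 were called rhythmic (JTK adjusted p of 0.0321, 0.0405 and 0.0467), and 1 of 7 without 16 h and 18 h. KDM6A and KDM6B, which demethylate the PRC2 mark, were not called for either measure, JTK or limma (0 of 2 at an unadjusted p under 0.05 for each). Of 15 genes listed for COMPASS, which encode mainly the opposing histone H3 methyltransferases and their partners, 6 were rhythmic, 1 rose and 3 fell. Without 16 h and 18 h the counts were 10, 0 and 3. The gene that rose was KDM5C, which encodes a histone demethylase and not a methyltransferase (0.15 ± 0.05, limma adjusted p = 0.0466). SETD1B had the smallest rhythm p (JTK adjusted p = 0.00148) and WDR5, a core COMPASS subunit, fell by 0.12 ± 0.03 (limma adjusted p = 0.00839). Of 23 genes of other complexes that hold RBBP4 or RBBP7, 3 were rhythmic, among them MTA2 of NuRD and CHAF1B of CAF-1, and 1 fell, SAP30 of the SIN3 complex, by 0.43 ± 0.08 (limma adjusted p = 0.00072). Without 16 h and 18 h 8 were rhythmic, 4 rose and 3 fell.

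Among HOX genes and CDKN2A and CDKN2B, known Polycomb targets, 10 of 41 listed were in the table, 8 of them from the HOXB cluster, and the others were not analysed here. Over all 24 time points none was called rhythmic by JTK or by the limma F test of 24 h terms (1 and 0 at an unadjusted p under 0.05). HOXB5 had the smallest adjusted JTK p, at 0.119. HOXB6, a homeobox gene expressed in erythroid precursors, went from 1.53 FPKM at 8 h to 8.18 at 42 h and rose by 0.76 ± 0.10 per 24 h (limma adjusted p = 1.06e-05). HOXB5 (0.34 ± 0.09), HOXB4 (0.28 ± 0.05) and HOXB3 (0.25 ± 0.06) also rose. HOXB8 was called as falling, by 0.43 ± 0.15 (limma adjusted p = 0.0370), and was at -0.22 with an adjusted p of 0.0602 without 16 h and 18 h. Of the 10 genes, 4 were called as rising and 1 as falling, against 13.5% and 8.8% of all genes. Without 16 h and 18 h, 1 was rhythmic, 4 rose and 0 fell, against 1993, 2403 and 1536 of all 12285 genes. The 10 genes had a median slope of 0.02, against -0.01 over all genes.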

How the data were processed

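RNA-seq of 24 K562 samples, 1 per time point, was analysed, with time points taken from the sample labels. The authors aligned reads with STAR and quantified and normalized them with Cufflinks2 and Cuffnorm. The submitters' notes name build GRCh37, and full versions, annotation and strandedness are not given in the sources used here. The deposited expression table held FPKM values, which were used as deposited. The deposited cleaned table held a score per gene, which equalled a Z-score followed by quantile normalization (largest difference 8.9e-16) and served as an alternative only. Each gene reached 1 FPKM in at least 12 time points. Of 12285 identifiers 12123 matched the name table.

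Low values fell on multiples of 1 read in at most 33.0% of cases per library (20% without steps, tolerance 0.1), so read counts were not recovered and precision from depth is unknown. The JTK statistic used 100000 orderings of the time points (smallest p 1e-05). Slopes used limma 3.58.1 in R 4.3.3 on log2(FPKM + 1), a scale that understates changes of low genes. Both were called at an adjusted p of at most 0.05, and neighbouring time points may be correlated, for which neither p allows. Both were tested on simulated data with independent noise at each time point. The simulated data held no STRIPE libraries and no correlation between neighbouring time points, so they do not show how either test handles these. GC content came from GENCODE 29 transcripts (known for 99.15% of genes) and promoters from RefSeq.

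Members and lists were chosen with earlier results of these data known. Named genes were all members, the 3 most similar genes per member, and per list the 2 smallest rhythm p and the 2 largest slopes. From these, examples are printed. CBX7, CDC25C, KDM5C, L3MBTL2, PHF19, EPOP, HOXB3 and HOXB4 were named after their values were seen, to complete small counts or ties. Alternatives were time points left out, median centring, upper quartile scaling, other filters, pseudocounts, periods, flanks, thresholds and corrections.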

Additional observations from a re-analysis of the deposited data

How the results depend on the processing

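No paired analysis was possible because each time point had 1 sample, so replicate numbers pair nothing, and the 2 spans were compared at matched hours by counts only. Over all genes, rhythm calls numbered 336 at a period of 20 h, 410 at 28 h and 937 to 1802 with 1 time point left out, lowest without 6 h. Trend calls numbered 2267 to 3311 with 1 time point left out and 1415 among genes averaging 10 FPKM or more, where fewer genes were tested. Genes 2-fold off the line at 16 h and 18 h numbered 1149 (661 above, 488 below) with the GC trend removed and 4993 (2933 above, 2060 below) at 1.5-fold. Those above numbered 579 after upper quartile scaling, and those below 1308 with a pseudocount of 0.1 and 549 under that filter. Beyond the thresholds and filters themselves, the cause was not tested.

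Rhythmic members numbered 1 (RING1) without 6 h, 16 h, 18 h and 32 h, after median centring, upper quartile scaling, quantile normalization or removal of a straight line, in the cleaned table and by the limma F test of 24 h terms, 1 at a period of 28 h (RBBP7) and 0 at 20 h, with 1 to 2 when 1 time point was left out. The rising member was lost (0) after median centring, without cosine and sine terms and, an alternative added after seeing the data, without 22 h, 28 h and 30 h, with 0 to 1 when 1 time point was left out. Falling members numbered 2 to 3 with 1 time point left out. At 1.5-fold, 4 members lay off the line at 16 h and 18 h, against 4993 of 12253 genes. No member's called slope reversed.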
